A study of Mus musculus with 6 samples.

Results

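The 10 genes described here encode the core of the switch that lets a cell pass from G1 into S phase: 6 inhibitors of cyclin-dependent kinases (Cdkn1a, Cdkn1b, Cdkn1c, Cdkn2a, Cdkn2b and Cdkn2c), 3 D cyclins (Ccnd1, Ccnd2 and Ccnd3) and the retinoblastoma gene Rb1. They were taken by symbol from a table of 49523 genes, and all 10 were found in it. The libraries are RNA sequencing of EO771, a mouse mammary carcinoma line, with 3 libraries of cells labelled cancer stem cells (CSC) and 3 of cells labelled non-CSC. No genetic change or drug treatment is given for either group, and the labels are silent on how stem cells were isolated from the line and how pure they were. The study set CSC against non-CSC to profile their gene expression. No label says that replicates came from separate cultures, so a p-value here reflects library-to-library spread alone, which may be technical.

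D cyclins are made in response to growth signals, bind the kinases CDK4 and CDK6, and start the phosphorylation of Rb, which otherwise holds E2F transcription factors in check. INK4 inhibitors (p16, p15, p18) bind CDK4 and CDK6 and keep the D cyclins away. Cip/Kip inhibitors (p21, p27, p57) block cyclin E and cyclin A kinases and also help D cyclins assemble with their partners. In the mammary gland, cyclin D1 is needed for lobule growth in pregnancy and is a frequent oncogene of breast cancer. Many of these proteins are controlled by degradation and phosphorylation, which RNA counts do not measure.

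The CSC libraries held 27099879 to 28205651 counts and the non-CSC libraries 32204112 to 35971131. Levels are given as CPM, counts scaled to a common library size with TMM factors. Of 8 epithelial markers 4 were higher in CSC and 2 lower, and the list summed to 4069 to 4257 CPM in CSC libraries and 3313 to 3468 CPM in non-CSC libraries. Krt18 had 1267 ± 42.5 CPM in CSC and 1255 ± 21.7 CPM in non-CSC (SD, n = 3 each) and did not pass the test. The other epithelial genes named here were chosen after their values were seen. Krt7 was higher, at 1057 ± 19.7 CPM in CSC and 502 ± 9.17 CPM in non-CSC (SD, n = 3 each). Epcam was lower, at 10.3 ± 0.192 CPM in CSC and 21.3 ± 0.646 CPM in non-CSC (SD, n = 3 each), as was the scarce Krt5, at 1.01 CPM in CSC and 3.64 CPM in non-CSC. Cdh1 was under 1 CPM on average in both groups. Of 9 tested stem cell markers 4 were higher and 4 lower in CSC. The stem cell list summed to less in CSC, at 3451 to 3542 CPM in CSC libraries and 3743 to 3795 CPM in non-CSC libraries. These marker counts stand beside 33.4% called higher and 33.1% called lower over all genes tested. Of 7 leukocyte markers, Adgre1 and Cd3e had no counts, and the list summed to 35.6 to 36.7 CPM in CSC libraries and 27.1 to 29.2 CPM in non-CSC libraries. Of its 3 tested members 2 were higher in CSC, Itgam at 10.2 CPM in CSC against 0.741 CPM in non-CSC and Csf1r at 8.06 CPM in CSC against 1.86 CPM in non-CSC. Cd68 was lower, at 17.8 CPM in CSC against 25.4 CPM in non-CSC. Ptprc, the gene of the general leukocyte antigen CD45, averaged 0.152 CPM in CSC and 0.0864 CPM in non-CSC (Csf1r and Ptprc were named after their values were seen). The 7 fibroblast markers summed to 1196 to 1243 CPM in CSC and 555 to 589 CPM in non-CSC, nearly all of it Dcn, while Lum had no counts. The 4 endothelial and 4 adipocyte markers summed to less than 1 CPM in every library, with Tek, Plin1 and Lep at 0. In bulk RNA, fewer cells of a type and less RNA per cell cannot be told apart, and the part of these markers in the results below was not tested.

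Of the 10 genes, 8 passed the filter on low counts and were tested. With the threshold at an adjusted p of 0.05 in edgeR's quasi-likelihood test of 17630 genes, 4 were higher in CSC (Ccnd1, Cdkn1a, Cdkn2c and Rb1) and 3 were lower (Cdkn1b, Cdkn2a and Ccnd3), while Cdkn2b did not pass. Over all genes tested, 33.4% were called higher and 33.1% lower (5894 and 5838 genes), 66.5% in all, and against that background the 7 calls among 8 tested members are not read as particular to them. The even split over all genes depends on scaling, with 6781 higher and 4970 lower by library totals and 6700 higher and 5066 lower by upper quartiles. The CPM values of CSC and non-CSC libraries did not overlap for the same 7 genes, against 69.3% of all genes tested. A change of at least 2-fold was called for 1 member, Ccnd1, and for 12.1% of all genes, 8.01% higher and 4.09% lower. The median log2 fold change was 0.16 over the 8 tested members and 0.01 over all genes. The median of its absolute size was 0.64 over the members and 0.33 over all genes. Since the members were chosen with earlier results of these data known, this difference is not read as particular to them.

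**Figure D1:**
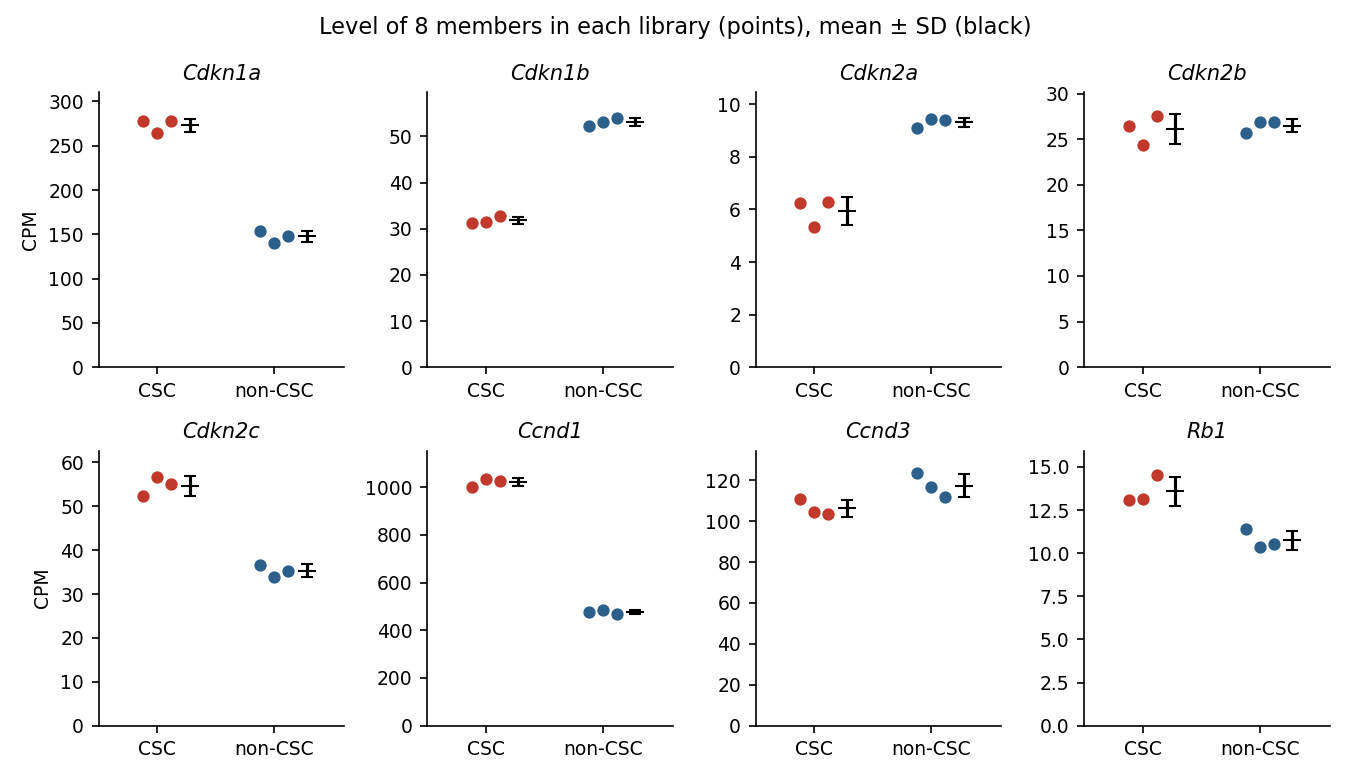
Level of each tested member in CPM, with 1 point for each library (CSC left, non-CSC right) and the mean ± SD of 3 libraries in black; each panel has its own axis from 0. The 3 CSC points lie above all non-CSC points for Cdkn1a, Cdkn2c, Ccnd1 and Rb1, and below them for Cdkn1b, Cdkn2a and Ccnd3. For Cdkn2b the CSC points run from below to above the non-CSC points.

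Among the D cyclins, Ccnd1 was higher, Ccnd3 slightly lower and Ccnd2 essentially without counts. Ccnd1, which encodes cyclin D1, lies on chromosome 7 at 144929931 to 144939925 (GRCm38, minus strand). It had 1001, 1036 and 1028 CPM in the CSC libraries, against 478, 484 and 469 CPM in the non-CSC libraries. Every CSC library was more than 500 CPM above every non-CSC library, a gap far wider than the spread within a group. Its log2 fold change reached 1.10 (95% interval 1.03 to 1.17, SE 0.0339, edgeR adjusted p = 3.79e-18), or 2.14-fold. Some exon bases of Ccnd1 are also exons of LTO1, a gene read from the opposite strand, which shares 1100 bases, 23.4% of the exon bases of Ccnd1. Whether counting used strand is unknown, so reads from those bases cannot be told apart. LTO1 itself had 158 ± 5.64 CPM in CSC and 77.1 ± 0.405 CPM in non-CSC (SD, n = 3 each). Its log2 fold change was 1.03, close to that of Ccnd1, at a level several times lower.

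Ccnd3 encodes cyclin D3, the member of the family best known from lymphocytes, and lies on chromosome 17 at 47505051 to 47599691. It had 111.0, 105 and 103 CPM in the CSC libraries, against 123.5, 117 and 111.9 CPM in the non-CSC libraries. The groups only just failed to overlap, with less than 1 CPM between the highest CSC and the lowest non-CSC library. The log2 fold change was -0.14 (95% interval -0.23 to -0.06, edgeR adjusted p = 0.00436). This call was lost when libraries were scaled by their upper quartile (log2 fold change -0.08, adjusted p = 0.0771) or by totals alone (-0.08, adjusted p = 0.103). Across all 15 alternatives the value stayed between -0.18 and -0.08. Exons of Bysl, on the opposite strand, cover 4.1% of the exon bases of Ccnd3, and Bysl did not pass the test (log2 fold change 0.04).

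Ccnd2, which encodes cyclin D2 and lies on chromosome 6 at 127125162 to 127152193, had 1 count in CSC replicate 2 and 0 in each of the other five libraries. A count of 0 allows up to 3 counts, or 0.103 to 0.109 CPM in a CSC library and 0.0849 to 0.0956 CPM in a non-CSC library. These limits cover counting error only, since reads that carry no molecular identifier may be copies of one molecule. No difference in Ccnd2 could be measured at this depth.

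To set the D cyclins side by side, counts were divided by the exon bases of each gene, taking all its annotated exons together. On that scale Ccnd1 made up 94.4% to 94.9% of the summed D cyclin level in the CSC libraries, against 87.8% to 88.7% in the non-CSC libraries, and Ccnd3 nearly all of the rest. Within a library, the ratio of Ccnd1 to Ccnd3 per kb was 17.9 ± 0.97 in CSC and 7.58 ± 0.323 in non-CSC (SD, n = 3 each). Such ratios do not depend on how libraries are scaled against each other. Their size does depend on gene length: with the longest transcript in place of all exons, the Ccnd1 share was 90.8% in CSC and 80.7% in non-CSC.

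The Cip/Kip inhibitors moved in opposite directions: Cdkn1a was higher and Cdkn1b lower in CSC, and Cdkn1c was not measurable. Cdkn1a encodes p21, the inhibitor that p53 is best known for inducing. It lies on chromosome 17 at 29090976 to 29100727. It had 277, 264 and 277.5 CPM in the CSC libraries, against 154, 141 and 148 CPM in the non-CSC libraries. All 3 CSC libraries stood more than 100 CPM above all non-CSC libraries. The log2 fold change was 0.89 (95% interval 0.81 to 0.97, SE 0.0387, edgeR adjusted p = 2.49e-15), or 1.85-fold. An unnamed antisense gene shares 7.7% of the exon bases of Cdkn1a.

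Cdkn1b encodes p27, an inhibitor known to build up in resting cells and to be induced by FOXO factors. It lies on chromosome 6 at 134920401 to 134925513, and no other annotated gene shares its exons. It had 31.1, 31.5 and 32.7 CPM in the CSC libraries, against 52.2, 53.2 and 54.0 CPM in the non-CSC libraries. Every CSC library lay below every non-CSC library, by far more than the spread inside either group. A log2 fold change of -0.74 was found (95% interval -0.84 to -0.65, SE 0.0459, edgeR adjusted p = 1.51e-12), so that CSC held 0.598 times the non-CSC level. Within a library, the ratio of Cdkn1a to Cdkn1b per kb was 11.01 ± 0.359 in CSC and 3.56 ± 0.194 in non-CSC (SD, n = 3 each).

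The bases before the start sites of these 2 genes are shown because they moved in opposite directions. They come from RefSeq (GRCm38.p6), where 6 of the 10 genes were matched, and Cdkn1a has a second start site upstream of the one shown. Capitals mark matches to the motifs described next, on either strand.
Cdkn1a, chr17:29093519-29093768, plus strand: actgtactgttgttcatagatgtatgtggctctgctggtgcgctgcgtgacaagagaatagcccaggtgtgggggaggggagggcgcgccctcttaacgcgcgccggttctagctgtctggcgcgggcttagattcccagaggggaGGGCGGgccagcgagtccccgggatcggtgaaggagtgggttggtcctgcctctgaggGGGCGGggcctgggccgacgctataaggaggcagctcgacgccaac
Cdkn1b, chr6:134920151-134920400, plus strand: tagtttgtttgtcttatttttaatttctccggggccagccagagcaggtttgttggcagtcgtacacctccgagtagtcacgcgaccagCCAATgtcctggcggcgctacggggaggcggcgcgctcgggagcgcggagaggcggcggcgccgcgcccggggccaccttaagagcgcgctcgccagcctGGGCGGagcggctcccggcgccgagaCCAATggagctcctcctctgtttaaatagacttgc
The motifs searched in the 250 bases before each start, on both strands, were 4 E2F words (TTTCGCGC, TTTGGCGC, TTTCCCGC, TTTGCCGC), the FOXO word TGTTTAC, the cyclic AMP response element TGACGTCA, the Sp1 word GGGCGG, the CCAAT box, TATAAA, the E-box CACGTG and the AP-1 word TGANTCA. No matches overlapped in the genes described here. This Cdkn1a window held GGGCGG at 2 places, and that of Cdkn1b held CCAAT at 2 places and GGGCGG at 1. Both words are common, found in 32.7% (GGGCGG) and 33.8% (CCAAT) of the 32851 start-site windows in the table. A match is a run of letters, not a measured binding site.

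Cdkn1c, which encodes p57 and is an imprinted gene, had 1 count in CSC replicate 2 and 0 in the other five libraries, the same as Ccnd2. It lies on chromosome 7 at 143458339 to 143461050, only 1.47 Mb from Ccnd1, the most abundant member. The limits set by a count of 0 are those given for Ccnd2.

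Of the INK4 inhibitors, Cdkn2a was lower, Cdkn2c higher and Cdkn2b without a detectable difference. Cdkn2a lies on chromosome 4 at 89274471 to 89294653 (minus strand) and is read from a pair of promoters. Its transcripts encode p16, the INK4 inhibitor, and p19ARF, which acts on the p53 pathway instead. Both use the same middle exon and overlapping last exons, annotated with 304 bases for p16 and 234 for ARF. By this annotation 32.5% of the p16 transcript and 35.8% of the ARF transcript are bases of their own. A count for each gene symbol cannot separate these transcripts. Cdkn2a had 6.24, 5.34 and 6.27 CPM in the CSC libraries, against 9.12, 9.43 and 9.39 CPM in the non-CSC libraries. The counts behind these were 151 to 182 in CSC and 286 to 332 in non-CSC, the lowest of the members that were tested. All CSC libraries lay below all non-CSC libraries, with a log2 fold change of -0.65 (95% interval -0.82 to -0.47, SE 0.0846, edgeR adjusted p = 4.91e-07), so that CSC held 0.639 times the non-CSC level.

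Cdkn2b encodes p15, known as a target of TGF-beta signalling, and lies 11.6 kb from Cdkn2a, at 89306299 to 89311039. It had 26.4, 24.3 and 27.6 CPM in the CSC libraries, against 25.7, 26.9 and 26.9 CPM in the non-CSC libraries. The groups overlapped, and the log2 fold change was -0.02 (95% interval -0.14 to 0.10, edgeR adjusted p = 0.757); the interval of Cdkn2a lies wholly below this one. Within a library, the ratio of Cdkn2a to Cdkn2b per kb was 0.2701 ± 0.009995 in CSC and 0.417 ± 0.0032 in non-CSC (SD, n = 3 each), with no overlap.

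The bases before the Cdkn2a start sites and that of Cdkn2b are shown because these neighbouring genes differed in response. Bases that GENCODE places inside an exon of the same gene were left off at the right-hand end.
Cdkn2a, ARF start, chr4:89294654-89294869, minus strand: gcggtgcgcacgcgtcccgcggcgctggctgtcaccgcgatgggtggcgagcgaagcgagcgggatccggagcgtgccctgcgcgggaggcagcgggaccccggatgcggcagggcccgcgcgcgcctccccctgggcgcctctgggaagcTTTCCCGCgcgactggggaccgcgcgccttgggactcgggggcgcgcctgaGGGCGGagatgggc
Cdkn2a, p16 start, chr4:89282193-89282442, minus strand: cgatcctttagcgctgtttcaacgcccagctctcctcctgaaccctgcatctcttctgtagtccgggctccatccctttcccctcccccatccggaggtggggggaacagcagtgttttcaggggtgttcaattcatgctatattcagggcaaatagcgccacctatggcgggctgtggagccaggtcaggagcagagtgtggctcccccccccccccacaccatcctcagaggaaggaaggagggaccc
Cdkn2b, chr4:89311040-89311282, minus strand: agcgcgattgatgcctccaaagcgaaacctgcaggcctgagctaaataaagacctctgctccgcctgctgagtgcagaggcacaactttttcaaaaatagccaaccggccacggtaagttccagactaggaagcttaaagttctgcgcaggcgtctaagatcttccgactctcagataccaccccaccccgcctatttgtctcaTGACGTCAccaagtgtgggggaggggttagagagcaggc
Before the ARF start, the E2F word TTTCCCGC was found from position -99 to -92 counted from the start site, and this word was found in 0.895% of all windows. The same window held GGGCGG at 2 places, 1 of them in the bases left off. The window before the p16 start held none of the motifs. The window of Cdkn2b held the word TGACGTCA from -46 to -39, found in 1.55% of all windows. Which start was used in these cells was not measured.

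Cdkn2c encodes p18, an inhibitor of CDK4 and CDK6 known to restrain stem cell division in blood of the mouse. It lies on the same chromosome, 20.4 Mb from Cdkn2a, at 109660876 to 109667189. It had 52.3, 56.7 and 55.0 CPM in the CSC libraries, against 36.7, 33.8 and 35.3 CPM in the non-CSC libraries. The groups did not overlap, and the log2 fold change was 0.63 (95% interval 0.53 to 0.73, SE 0.0482, edgeR adjusted p = 6.54e-11), or 1.55-fold. The fourth INK4 gene, Cdkn2d, which encodes mouse p19INK4d and was added after its value was seen, had 32.3 ± 2.13 CPM in CSC and 32.9 ± 0.751 CPM in non-CSC (SD, n = 3 each) and did not pass (edgeR adjusted p = 0.694).

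Taking the 6 inhibitors as a pool, Cdkn1a made up the greatest part in both groups and more of it in CSC. Cdkn2d, at 32.3 CPM in CSC and 32.9 CPM in non-CSC, is not part of this pool, so the shares are of the 6 genes only. Its share of the summed inhibitor level per kb was 59.6% to 60.7% in the CSC libraries, against 43.4% to 45.7% in the non-CSC libraries. The share of Cdkn1b was 5.32% to 5.57% in CSC and 12.1% to 12.8% in non-CSC, and that of Cdkn2a 3.66% to 4.14% in CSC and 8.22% to 8.81% in non-CSC. Cdkn2b took 14.1% to 15.2% in CSC and 19.5% to 21.2% in non-CSC, although its own level did not pass the test. Cdkn2c took 15.1% to 17.0% in CSC and 13.8% to 14.4% in non-CSC. With the longest transcript as length its shares overlapped, at 11.3% to 12.7% in CSC and 11.1% to 11.5% in non-CSC. These shares are descriptions of 3 libraries in each group, with no test.

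**Figure D2:**
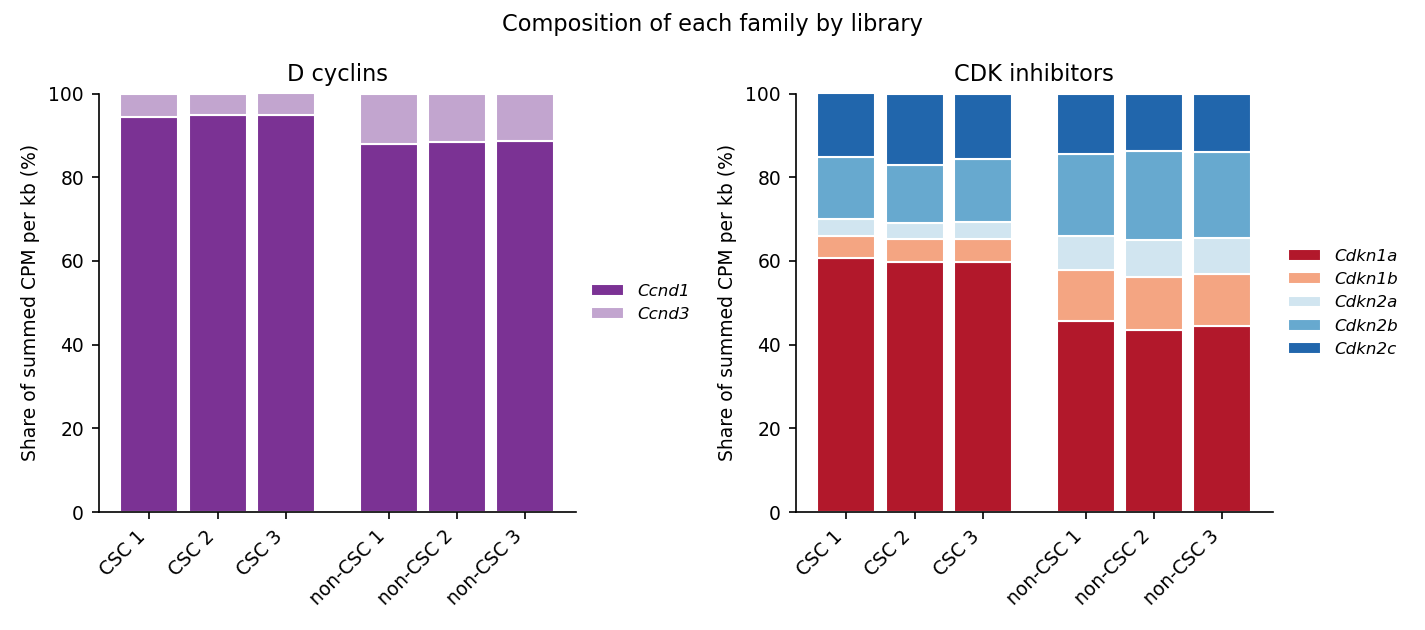
Share of each gene in the summed level per kb of the D cyclins or of the 6 inhibitors described, in percent, for each library (CSC bars left, non-CSC bars right). Cdkn2d is not among these inhibitors. Ccnd2 and Cdkn1c, at or near 0, are not drawn. Ccnd1 fills 94.4% or more of each CSC bar of the D cyclins, and Cdkn1a is 59.6% or more of each CSC bar of the inhibitors.

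Rb1 encodes the retinoblastoma protein, the substrate on which the D cyclin kinases act, and lies on chromosome 14 at 73183673 to 73325822. It had 13.1, 13.2 and 14.6 CPM in the CSC libraries, against 11.4, 10.4 and 10.5 CPM in the non-CSC libraries. The groups did not overlap in CPM, while the raw counts, 360 to 422 in CSC and 357 to 372 in non-CSC, did, the CSC libraries having the smaller totals. A log2 fold change of 0.34 was fitted (95% interval 0.19 to 0.49, SE 0.0707, edgeR adjusted p = 0.000196). The call held under all 15 alternatives, with values from 0.28 to 0.41. Exons of the opposite-strand genes Rcbtb2 and Lpar6 cover 8.1% and 6.8% of the exon bases of Rb1. Rcbtb2 had a log2 fold change of 0.34, the same size as that of Rb1, and Lpar6 one of -0.24.

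Set in order by level per kb, the members in CSC libraries were Ccnd1 (217 CPM per kb), Cdkn1a (76.8), Cdkn2c (20.4), Cdkn2b (18.8), Ccnd3 (12.1), Cdkn1b (6.99), Cdkn2a (5.08) and Rb1 (2.26). In non-CSC libraries the order was Ccnd1 (101.3 CPM per kb), Cdkn1a (41.5), Cdkn2b (19.1), Ccnd3 (13.4), Cdkn2c (13.1), Cdkn1b (11.7), Cdkn2a (7.95) and Rb1 (1.79). Cdkn2c and Cdkn2b overlapped in CSC, and Ccnd3 and Cdkn2c overlapped in non-CSC; the other neighbours in either order did not overlap. With the longest transcript as length, Ccnd3 stood next after Cdkn1a in both groups, at 27.6 CPM per kb in CSC and 30.4 in non-CSC. Of 15360 tested genes with an exon length, Ccnd1 exceeded at least 98.8% in each CSC library and 96.9% in each non-CSC library. Rb1 exceeded 31.4% to 33.2% in CSC and 28.1% to 29.7% in non-CSC.

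Several members lie in stretches whose median change had the same sign as their own, so each was set beside the 30 adjacent tested genes. Among all genes tested, 33.4% were called higher and 33.1% lower, with a median log2 fold change of 0.01. The 30 neighbours of Ccnd1 had a median log2 fold change of 0.23, with 15 called higher and 9 lower, and Ccnd1 lay 0.87 above that median. The neighbours of Cdkn1a had a median of 0.25, with 17 higher and 6 lower, and Cdkn1a lay 0.64 above it. Around Cdkn1b the median was -0.22, with 4 higher and 16 lower, and Cdkn1b lay -0.52 from it. Around Rb1 it was -0.30, with 6 higher and 18 lower, so Rb1 was higher in CSC within a stretch that was lower. The 10 genes nearest to Rb1 had a median of 0.05 instead. Around Ccnd3 the median was -0.10, and Ccnd3 lay -0.04 from it; with the 10 nearest genes the median was 0.08 and Ccnd3 lay -0.23 from it. The medians around Cdkn2a, Cdkn2b and Cdkn2c were 0.02, 0.03 and 0.00 to 2 decimals. The part of a shared regional shift in any of these changes was not tested.

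**Figure D3:**
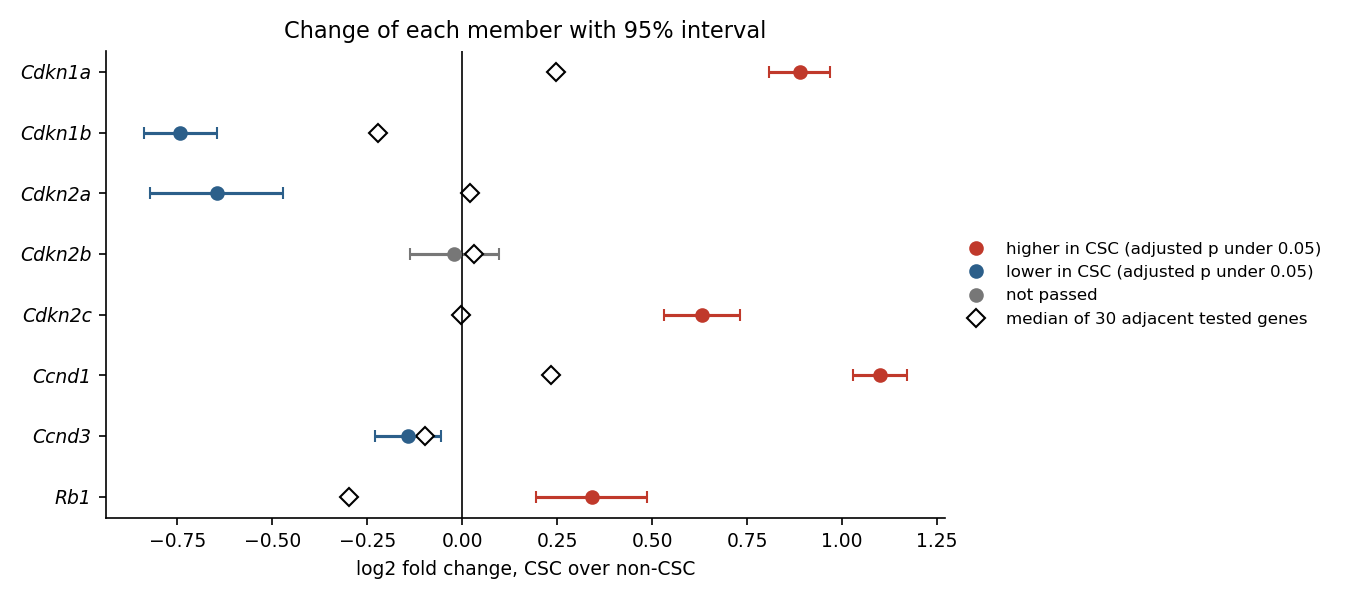
Log2 fold change of each tested member, CSC over non-CSC, with its 95% interval (bars), coloured by call, and the median of its 30 adjacent tested genes (open diamonds). The changes run from -0.74 for Cdkn1b to 1.10 for Ccnd1, and for Ccnd3 and Cdkn2b the diamond falls inside the member's interval.

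The kinases that D cyclins bind did not move together. Cdk6 had 279, 273 and 289 CPM in the CSC libraries, against 156, 157 and 163 CPM in the non-CSC libraries, a log2 fold change of 0.82 (edgeR adjusted p = 3.31e-15). The groups lay more than 100 CPM apart. Cdk4, chosen after its value was seen, was slightly lower, at 441 ± 12.6 CPM in CSC and 493 ± 12.8 CPM in non-CSC (SD, n = 3 each; edgeR adjusted p = 0.000491). Of 8 tested genes for CDKs and the CDK-activating kinase, 3 rose and 3 fell. Each list count here and below stands beside 33.4% called higher and 33.1% called lower over all genes tested. Cdk7 and Cdk2 rose by 0.48 and 0.24 on the log2 scale. Mnat1, the assembly factor of the CDK-activating kinase, fell to 18.2 ± 0.765 CPM in CSC, against 42.1 ± 1.11 CPM in non-CSC (SD, n = 3 each).

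Downstream of the D cyclins, 3 of 4 E and A cyclin genes rose, but the list's summed level was 176 to 185 CPM in CSC libraries and 219 to 225 CPM in non-CSC libraries. Ccne1, a cyclin of the G1/S transition, had 41.7 ± 2.73 CPM in CSC and 24.5 ± 2.32 CPM in non-CSC (SD, n = 3 each), and Ccne2 rose by 0.50 on the log2 scale. Ccna1, a cyclin best known from the testis and named after its value was seen, had 0.53 ± 0.092 CPM in CSC and 0.317 ± 0.107 CPM in non-CSC (SD, n = 3 each; edgeR adjusted p = 0.0476), from 7 to 18 counts in a library. Its call was lost in 7 of 14 alternatives, among them leaving out any 1 CSC library or non-CSC replicate 1 or 3. Ccna2, a cyclin of S and G2 phase, fell by 0.69 on the log2 scale. Of the 8 pocket protein and DREAM complex genes, among them relatives of Rb, 3 rose and 3 fell, all by less than 0.5 on the log2 scale. Among these Lin54 fell by 0.46, Lin52 by 0.38 and Mybl2, which encodes an activator that joins the complex later in the cycle, by 0.25, while Lin37 rose by 0.29. Of 9 tested E2F and DP genes, 3 rose and 2 fell. E2f4, a repressive E2F of resting cells, fell to 73.4 ± 3.12 CPM in CSC, against 131 ± 4.53 CPM in non-CSC (SD, n = 3 each), and E2f5 fell by 0.57 on the log2 scale. The partner genes Tfdp1 and Tfdp2 rose by 0.41 and 0.40.

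Known E2F targets, most of them genes of the G1/S transition, went both ways: 10 of 20 rose and 7 fell. The list's median log2 fold change was 0.08, and it also holds genes of later phases, such as Top2a. Tyms, a gene of nucleotide supply, rose by 0.66 and Rpa2, a gene of DNA replication, by 0.49 on the log2 scale. Top2a, a topoisomerase gene most active late in the cycle, fell to 617 ± 9.19 CPM in CSC, against 910 ± 19.9 CPM in non-CSC (SD, n = 3 each).

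Genes for the degradation of p27, p21 and D cyclins went both ways: 5 of 15 rose and 8 fell, and the median log2 fold change was -0.14. Skp2, the receptor subunit of the ligase that marks p27 for degradation, fell to 48.8 ± 0.286 CPM in CSC, against 67.7 ± 0.683 CPM in non-CSC (SD, n = 3 each). Fbxo4, a ligase subunit linked to cyclin D1, fell by 0.48 and Fzr1 by 0.41 on the log2 scale, while the cullin gene Cul4b rose by 0.69. Known repressors of the Ink4 genes were split, 5 of 12 tested higher and 5 lower, with a median of 0.02. Id2 and Id1, inhibitors of basic helix-loop-helix factors, rose by 0.96 and 0.42, and the polycomb genes Kdm2b and Suz12 fell by 0.54 and 0.49.

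Of 13 tested genes for activators of CDK inhibitor genes, 3 rose and 9 fell, with a median of -0.18. The shares over all genes tested were 33.4% higher and 33.1% lower. No lean of this list is read from 13 genes without a test. Foxo1, which encodes a factor that induces Cdkn1b, fell to 9.69 ± 0.125 CPM in CSC, against 23.5 ± 0.53 CPM in non-CSC (SD, n = 3 each). The FOXO genes did not move together. Foxo3, at 94.5 CPM in CSC and 101 CPM in non-CSC, had a log2 fold change of only -0.10. Foxo4 was higher in CSC, with a log2 fold change of 0.31. Foxo3 and Foxo4 were named after their values were seen. Ets1, known to activate the human p16 promoter, fell by 1.10, Dmtf1, which activates the ARF promoter in the mouse, by 0.67 and Zbtb17 by 0.38 on the log2 scale. Trp53, which encodes p53 and was chosen after its value was seen, was higher at 189 ± 9.28 CPM in CSC and 148 ± 6.31 CPM in non-CSC (SD, n = 3 each; edgeR adjusted p = 7.01e-08). Trp73 had no counts.

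Among genes for mitogenic inducers of D cyclins, 5 of 15 rose and 8 fell, and their median was -0.28. Stat5a, a transcription factor gene of prolactin signalling, had 139, 141 and 137 CPM in the CSC libraries, against 28.8, 25.5 and 26.5 CPM in the non-CSC libraries. The groups were far apart, with a log2 fold change of 2.37 (edgeR adjusted p = 4.78e-22). Myc fell to 161 ± 11.3 CPM in CSC, against 292 ± 5.33 CPM in non-CSC (SD, n = 3 each), and the AP-1 genes Fosl1 and Jun fell by 1.68 and 0.73 on the log2 scale. The scarcer Mycn, named after its value was seen, was higher, at 5.07 CPM in CSC and 0.992 CPM in non-CSC. Over all 10 lists, each gene taken once, 40 of 107 tested genes were higher (37.4%) and 47 lower (43.9%), with a median of -0.05, beside 33.4% and 33.1% of all genes tested. With upper-quartile scaling 41 were higher and 41 lower, and with library totals 43 were higher and 41 lower, so no lean to lower is read from these counts. The lists are collections by known role with no test of their own.

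**Figure D4:**
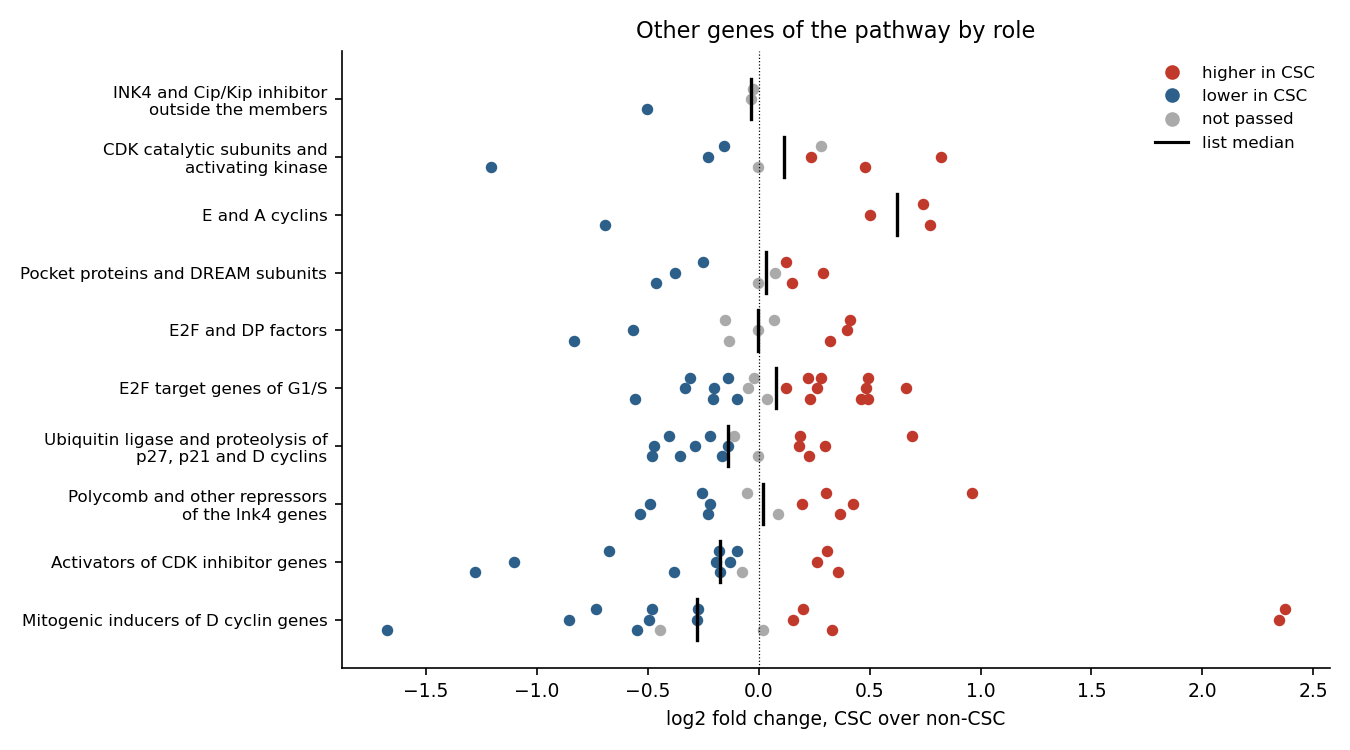
Log2 fold change, CSC over non-CSC, of the tested genes of 10 lists of the pathway (1 point for each gene, coloured by call; vertical jitter has no meaning) with the list median as a black bar. The medians lie between -0.28 for the mitogenic inducers and 0.62 for the E and A cyclins. The latter list has 4 genes, among them the scarce Ccna1, and its summed CPM was lower in CSC. Each list but the inhibitors outside the 10 described holds genes on both sides.

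The genes whose pattern over the 6 libraries was most like that of Ccnd1 were Twsg1, H2-Q1 and Endod1. Likeness was the root mean square difference of mean-centred log2 CPM, at 0.0155, 0.018 and 0.0262 over 10092 candidate genes. For Cdkn1b they were Ifnlr1, Vcam1 and Chd2, at 0.0199, 0.0212 and 0.024. These patterns rest on 6 libraries in 2 groups. Twsg1, for instance, had 277 ± 7.17 CPM in CSC and 132 ± 1.09 CPM in non-CSC, and Chd2 had 91.7 ± 1.72 CPM in CSC and 152 ± 5.41 CPM in non-CSC (SD, n = 3 each).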

How the data were processed

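The authors deposited raw read counts for each gene symbol, with GRCm38 as genome build in the submitters' processing notes; no source used here names the aligner, counter, annotation or strand setting. RNA was isolated with Trizol and prepared with a NEBNext Ultra II kit, per the labels' protocols. Columns were matched to samples by group word and replicate number. The members and gene lists were chosen with earlier results of these data known.

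From the counts, genes were filtered with filterByExpr (17630 of 49523 kept), scaled with TMM (factors 0.974 to 1.03) and fitted with edgeR 4.0.16 (quasi-likelihood, robust, no covariate) in R 4.3.3, with Benjamini-Hochberg adjustment over all genes tested and a threshold of 0.05. SE is the log2 fold change divided by the root of F. Replicates of a group differed beyond sampling noise (chi-square per degree of freedom 3.21 to 7.30). Exon lengths and overlaps came from GENCODE M21, gene order and start sites from RefSeq (GRCm38.p6). Named by rule were all members, up to 4 genes of each pathway list with the largest change among those called with a mean of at least 5 CPM, the 3 nearest patterns of the members that rose and fell most, and up to 2 marker genes of each cell type; genes sharing exons with a member and markers at 0 are named too, and other names are said to be chosen after values were seen. The alternatives, besides leaving out each library, were RLE, upper-quartile and total scaling, no filter, a mean of at least 50 counts, DESeq2 1.42.0, limma-voom 3.58.1, the robust setting off and a replicate block. The fit was tested on simulated data. A gene that the naming rule selected is not reported here.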

Additional observations from a re-analysis of the deposited data

How the results depend on the processing

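The direction and call of Cdkn1a, Cdkn1b, Cdkn2a, Cdkn2c, Ccnd1 and Rb1 held under all 15 alternatives of scaling, filter, model and libraries. The call of Ccnd3 was lost with upper-quartile scaling (log2 fold change -0.0836, adjusted p = 0.0771) and with library totals (-0.0764, adjusted p = 0.103), leaving 6 of 8 members called. These scalings moved the median of all genes by 0.06 and 0.07 on the log2 scale. Cdkn2b, which never passed, changed sign with upper-quartile scaling (0.038), library totals (0.0453) and a mean of at least 50 counts (0.0107), and ranged from -0.0661 to 0.0235 when each library was left out. Cdkn2d likewise gave 0.034, 0.0414 and 0.0067 under those settings and -0.0834 to 0.0013 with a library left out, and Krt18 gave -0.0116 with no filter and -0.0136 to 0.0355 with a library left out. Bysl, on the opposite strand of Ccnd3, ranged from -0.0029 to 0.0561 with a library left out and passed with library totals alone (0.1047). Library totals called 6781 genes higher and 4970 lower, and upper-quartile scaling 6700 and 5066, against 5894 and 5838. Without a library, 11175 to 11578 genes were called.

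No pairing by replicate number was seen: deviations of same-numbered libraries correlated across genes at -0.019, -0.075 and 0.01. Those of differently numbered libraries correlated at -0.072 to 0.094. Whether same-numbered libraries shared a culture or batch cannot be told from these values. With a replicate block 11680 genes and 7 members were called, against 11732 and 7 without it.

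Shares within families depended on length. Without division by length, Ccnd1 took 90.6% of D cyclins in CSC and 80.3% in non-CSC, and Ccnd3 9.43% and 19.7%. In the same order of groups, the inhibitors took 69.7% and 54.3% (Cdkn1a), 8.12% and 19.6% (Cdkn1b), 1.52% and 3.43% (Cdkn2a), 6.66% and 9.75% (Cdkn2b), and 14.0% and 13.0% (Cdkn2c). With the longest transcript as length, an alternative chosen after seeing the data, they took 90.8% and 80.7% (Ccnd1), 9.17% and 19.3% (Ccnd3), 70.6% and 56.1% (Cdkn1a), 3.76% and 9.25% (Cdkn1b), 3.58% and 8.24% (Cdkn2a), 10.1% and 15.1% (Cdkn2b), and 11.9% and 11.3% (Cdkn2c). With 10 neighbours in place of 30, the median was -0.30 around Cdkn1b, -0.0902 around Cdkn2a, -0.10 around Cdkn2b, 0.30 around Ccnd1, 0.0835 around Ccnd3 and 0.0545 around Rb1. Cdkn1c and Ccnd2 were testable only with no filter and did not pass. At 0 or 1 count in a library, depth limits what can be said of these 2 genes.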
